A study of Saccharomyces cerevisiae with 18 samples.

Results

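Ribonucleotide reductase converts ribonucleotides into the deoxyribonucleotides (dNTPs) from which DNA is built, and in budding yeast its genes answer both to the cell cycle and to DNA damage. The enzyme pairs a large subunit, mainly Rnr1 with Rnr3 as the damage-induced form, with a small subunit made of Rnr2 and Rnr4. Sml1 binds and inhibits the large subunit, Hug1 is a small inhibitor of the enzyme, Dif1 brings the small subunit into the nucleus, and the checkpoint kinase Dun1 sits above these inhibitors. MBF, a G1/S transcription factor, binds the MCB element, and Crt1 (encoded by RFX1) represses damage-induced RNR genes through the X box. Expression of 9 genes of dNTP supply was followed here: RNR1, RNR2, RNR3, RNR4, SML1, HUG1, DUN1, DIF1 and CDC21, the last of which encodes thymidylate synthase. They were taken by name from the 6692 gene probes of the count tables. All 9 passed the filter on low counts and were among the 5658 genes tested.

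RNA came from BY4741, a laboratory strain of Saccharomyces cerevisiae used as wild type, and from its derivative ZCZ01, in which the galactose-inducible GAL1-10 promoter drives PPZ1, the gene of a protein phosphatase. Both strains were grown on raffinose and both received 2% galactose, so the wild type at the same time is the control, and the wild type keeps PPZ1 under its own promoter. Samples were taken at 0.5, 2 and 4 h in 3 experiments, which gave 18 QuantSeq libraries of 955972 to 1920193 counts (median 1647535). QuantSeq gives 1 read near the 3′ end per captured transcript, and levels are given as CPM, counts scaled to the library total with TMM normalization. PPZ1 ran from 4.59 to 10.7 CPM in the wild type libraries and from 21.0 to 508 CPM in the ZCZ01 libraries, and the ranges did not overlap. Its course in ZCZ01 differed between experiments. In experiment 1 it was 508, 89.5 and 21.0 CPM at 0.5, 2 and 4 h. In experiment 2 it was 131, 394 and 96.5 CPM, and in experiment 3 it was 131, 458 and 89.1 CPM. The log2 ratio to the paired wild type library at 4 h was 1.04, 3.46 and 4.10 in experiments 1 to 3. Experiments 2 and 3 were far more alike (chi-square per degree of freedom 1.12 to 2.59 between matching libraries) than either was to experiment 1 (21.7 to 46.2), so adjusted p values that count 3 replicates may be too small. For 12 of the 18 libraries the time in the sample title is not that in the library name. Times were taken from the library names, and the column names of the counts give the same times as these. RNA was taken from whole cultures, in which fewer cells of a cell cycle phase and less RNA per cell cannot be told apart.

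Promoters were read in the R64 genome over the 500 nt before the start codon, on both strands. The stretches below hold the motif matches of the 5 genes that had any. A link between motifs and changes in level was not tested. Each is written 5′ to 3′ on the strand of its gene, with the matched bases in capitals. The stretches lie at chrV:298450-298655 (plus strand, RNR1), chrXV:467690-467769 (minus strand, CDC21), chrIV:281989-282028 (minus strand, DUN1), chrIX:240874-240998 (minus strand, RNR3) and chrX:391954-391993 (plus strand, RNR2).
RNR1: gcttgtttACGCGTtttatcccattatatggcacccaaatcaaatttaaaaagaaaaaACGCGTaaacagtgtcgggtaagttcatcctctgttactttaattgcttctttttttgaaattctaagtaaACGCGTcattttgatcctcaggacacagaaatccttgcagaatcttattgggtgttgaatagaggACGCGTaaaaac
CDC21: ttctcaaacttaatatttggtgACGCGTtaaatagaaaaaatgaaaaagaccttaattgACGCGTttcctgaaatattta
DUN1: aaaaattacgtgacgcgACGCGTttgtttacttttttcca
RNR3: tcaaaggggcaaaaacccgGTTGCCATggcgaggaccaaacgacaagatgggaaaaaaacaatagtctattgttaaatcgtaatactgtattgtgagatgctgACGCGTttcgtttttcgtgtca
RNR2: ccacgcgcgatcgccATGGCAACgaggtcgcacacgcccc

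The MCB (ACGCGT) was found 4 times upstream of RNR1, with its first base at -492, -442, -371 and -306 from the start codon. CDC21 had 2 copies, at -158 and -121, while RNR3 (-187) and DUN1 (-163) had 1 each. In all, 4 of the 9 promoters held an MCB, against 5.42% of 6000 promoters of the same length. A part of the X box (ATGGCAAC) lay upstream of RNR2 at -435 and, on the reverse strand, of RNR3 at -271, and 1.75% of all promoters held it. The full X box, which shares ATGGCAA with this part, had 0 matches in the 9 promoters and was found in 0.1% of all. The SCB (CGCGAAA), which shares CGCG with the MCB, also had 0 matches in the 9 and was found in 5.82% of all. Only exact matches were counted. The stretches of RNR2 and RNR3 above each hold a site that differs from the full X box at 1 letter, so the 0 matches do not show that these promoters lack an X box. A match is a match of letters and not a measured binding site.

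**Figure D1:**
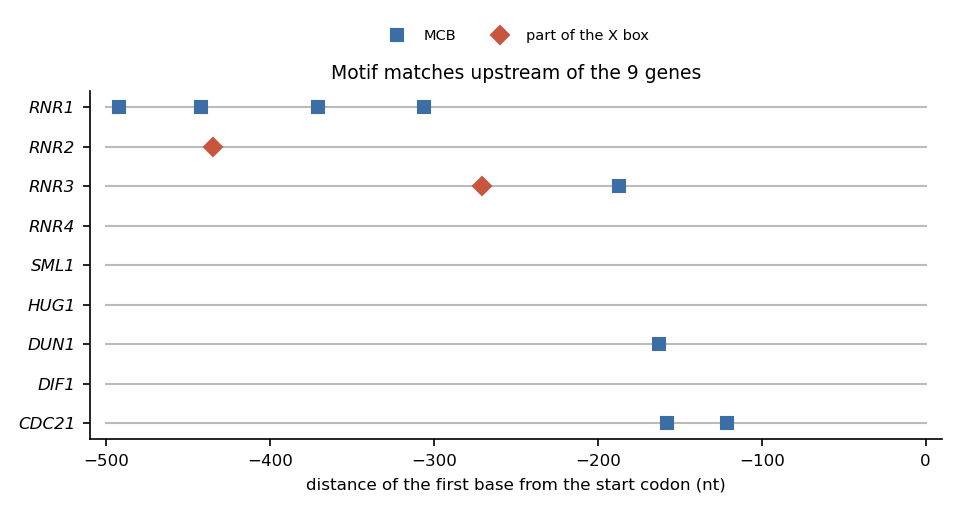
Position of the motif matches, as distance of the first base from the start codon in nt, for the 9 genes. Squares mark the MCB and diamonds the part of the X box; RNR1 carries 4 MCB elements, and 4 of the 9 genes carry neither motif.

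ZCZ01 and wild type were set against each other at each time in edgeR (quasi-likelihood) with 1 block for each pair of libraries, and p values were adjusted by Benjamini-Hochberg over all 5658 genes. At 2 h, 4 of the 9 genes were higher in ZCZ01 (RNR2, RNR3, SML1 and HUG1; 19.1% of all genes were higher) and 2 were lower (RNR1 and CDC21; 23.2%), so 6 of 9 passed where 42.3% of all genes did. At 4 h, RNR3 and HUG1 were higher (background 19.9%) and RNR1 and CDC21 lower (21.4%), 4 of 9 against 41.3%. With total counts in place of TMM the median of all genes at 2 h shifted by 0.14 on the log2 scale, and 57% of the genes called were higher in place of 45.1%. At 0.5 h, 0 of the 9 passed in edgeR and in DESeq2 (1 in edgeR before adjustment, at p under 0.05), against 6.86% of all genes. Thus the share of members that passed was close to the background at 4 h and somewhat above it at 2 h, and the values below describe their size and direction. Ranges of the 3 libraries per strain did not overlap for 1 of the 9 genes at 0.5 h (21.5% of all genes), 7 at 2 h (44.1%) and 4 at 4 h (39.3%).

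**Figure D2:**
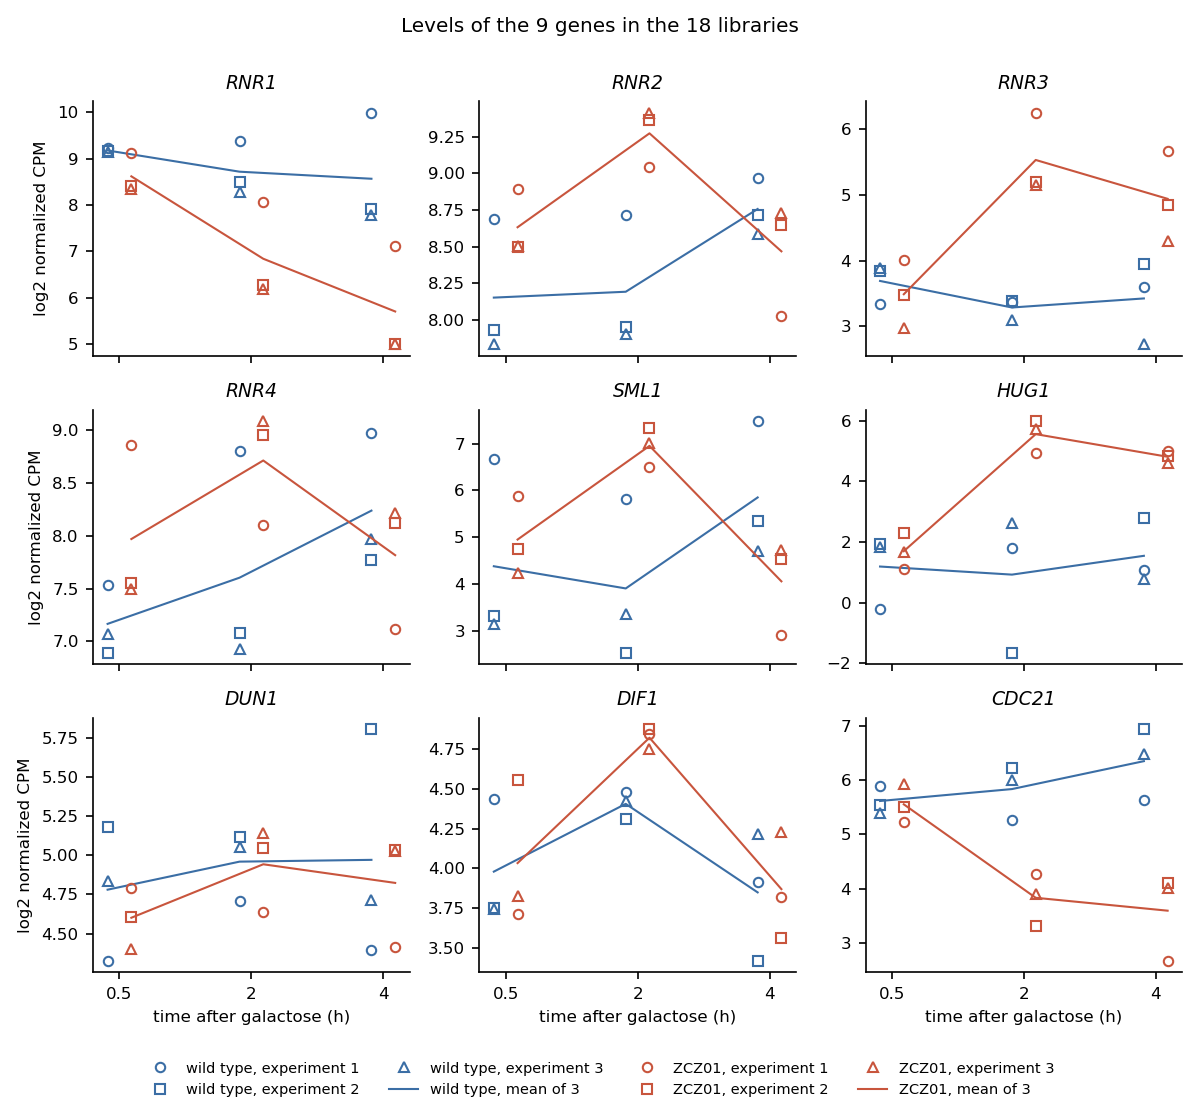
log2 of normalized CPM (prior count 0.5) of each gene against time after galactose in h, in wild type (blue) and ZCZ01 (red). Symbols are the 3 experiments and lines join the means; RNR1 and CDC21 part downwards in ZCZ01 and RNR3 and HUG1 upwards from 2 h on, and the lowest wild type point of HUG1 at 2 h is a library with 0 counts.

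RNR1, the main large subunit gene, was lower in ZCZ01 at 2 and 4 h. In wild type its level was 595, 568 and 568 CPM in experiments 1 to 3 at 0.5 h, 665, 359 and 311 CPM at 2 h, and 1014, 241 and 221 CPM at 4 h. In ZCZ01 it was 552, 337 and 324 CPM at 0.5 h, 269, 76.6 and 72.4 CPM at 2 h, and 138, 31.7 and 31.8 CPM at 4 h. Every ZCZ01 library lay below every wild type library of its time, although experiment 1 stood well above the others in both strains at 2 and 4 h. The log2 fold change was -1.85 (SE 0.19, edgeR adjusted p = 7.0e-06) at 2 h and -2.86 (SE 0.21, adjusted p = 1.6e-07) at 4 h, that is 3.61-fold and 7.29-fold lower. At 0.5 h it was -0.55 (SE 0.18, adjusted p = 0.0892), and the 3 paired log2 ratios were -0.11, -0.75 and -0.81. Without the block the call at 2 h was lost (log2 fold change -1.67, adjusted p = 0.0781).

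RNR3, the damage-induced large subunit gene, moved the other way. Wild type libraries held 9.86, 14.1 and 14.4 CPM at 0.5 h, 10.1, 10.2 and 8.23 CPM at 2 h, and 11.8, 15.1 and 6.31 CPM at 4 h. ZCZ01 libraries held 15.8, 10.9 and 7.52 CPM at 0.5 h, 75.9, 36.5 and 35.1 CPM at 2 h, and 50.8, 28.4 and 19.5 CPM at 4 h. The strains overlapped at 0.5 h and were apart at 2 and 4 h. The log2 fold change was 2.31 (SE 0.35, edgeR adjusted p = 1.4e-04) at 2 h and 1.57 (SE 0.35, adjusted p = 0.00293) at 4 h, 4.97-fold and 2.98-fold higher.

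The balance of the large subunit genes was read from their counts. RNR3 made up 1.15% to 5.88% of the RNR1 and RNR3 counts in the 9 wild type libraries and 2.27% to 3.12% in ZCZ01 at 0.5 h. At 2 h in ZCZ01 the share was 22.0% (exact 95% interval 18.8% to 25.4%), 32.2% (24.9% to 40.3%) and 32.6% (26.0% to 39.8%) in experiments 1 to 3. At 4 h it was 26.9% (22.3% to 31.9%), 47.2% (36.5% to 58.1%) and 38.0% (28.5% to 48.3%). The lower limits of these 6 libraries all lay above the highest upper limit in wild type, 9.38%. The intervals cover counting error only. The coding sequences of RNR1 and RNR3 are 77.8% identical over 2598 aligned nt, and the longest run of bases their probes share is 38 nt, shorter than the reads of 75 nt.

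**Figure D3:**
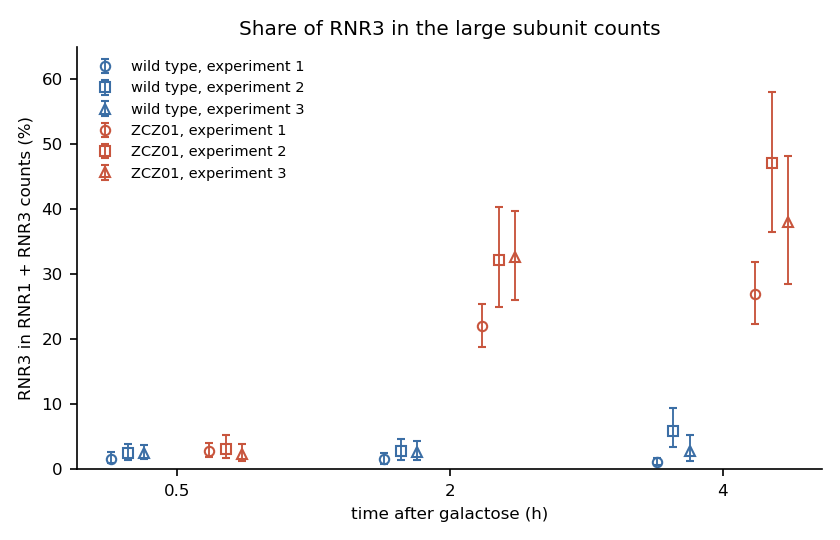
Share of RNR3 in the summed counts of RNR1 and RNR3 (%), by time after galactose in h, for each library. Bars are exact 95% binomial intervals; wild type libraries (blue) stay at or under 5.88% and ZCZ01 libraries (red) reach 22.0% to 47.2% at 2 and 4 h.

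RNR2 and RNR4, the small subunit genes, were compared next. RNR2 in wild type was 413, 244 and 228 CPM at 0.5 h, 421, 248 and 239 CPM at 2 h, and 502, 420 and 384 CPM at 4 h. In ZCZ01 it was 475, 362 and 363 CPM at 0.5 h, 527, 659 and 682 CPM at 2 h, and 261, 401 and 425 CPM at 4 h. The strains were apart at 2 h, where RNR2 was 2.11-fold higher (log2 fold change 1.08, SE 0.24, edgeR adjusted p = 0.00258), and overlapped at the other times. The paired log2 ratio at 2 h was 0.32 in experiment 1 and 1.41 and 1.51 in the others, and the call was lost without experiment 3 (0.90, adjusted p = 0.0527) and with experiments 2 and 3 summed (0.93, adjusted p = 0.0525). Reads of RNR2 may include those of YJL026C-A, which overlaps it by 322 nt on the opposite strand, and whether strand was used in counting is not stated.

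RNR4 did not pass at any time, and its experiments disagreed. At 2 h it was 446, 135 and 122 CPM in wild type and 274, 495 and 543 CPM in ZCZ01, with paired log2 ratios of -0.70, 1.88 and 2.16. The fit gave 1.13 (SE 0.51, edgeR adjusted p = 0.0891) at 2 h, -0.40 (SE 0.49, adjusted p = 0.542) at 4 h and 0.82 (SE 0.48, adjusted p = 0.393) at 0.5 h. Without experiment 1 the call at 2 h was made (2.07), which rests on the 2 closely alike experiments. At 4 h the fit without experiment 1 passed as higher (0.31, SE 0.09, edgeR adjusted p = 0.00176), opposite in sign to the fit of all experiments. With TMM left out and total counts used alone, RNR4 also passed at 2 h (1.27, adjusted p = 0.0415).

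SML1, the inhibitor of the large subunit, had its highest group mean in ZCZ01 at 2 h, while the highest single library was wild type of experiment 1 at 4 h. Wild type held 102, 9.66 and 8.53 CPM at 0.5 h, 56.0, 5.48 and 10.0 CPM at 2 h, and 178, 40.5 and 26.0 CPM at 4 h, so that experiment 1 was above the other experiments at each time. ZCZ01 held 58.5, 26.4 and 18.5 CPM at 0.5 h, 90.6, 161 and 129 CPM at 2 h, and 7.18, 23.0 and 26.1 CPM at 4 h. The strains were apart at 2 h alone, with a log2 fold change of 2.64 (SE 0.77, edgeR adjusted p = 0.0135), and at 4 h the fit gave -1.74 (SE 0.81, adjusted p = 0.0998). The call at 2 h was lost without experiment 2 (2.00, adjusted p = 0.0899), without experiment 3 (2.27, adjusted p = 0.0799), with both summed (2.31, adjusted p = 0.0871) and without the block (2.39, adjusted p = 0.0768), and it was 4.18 without experiment 1.

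HUG1, which lies upstream of SML1 on chromosome XIII with 416 nt between the coding sequences, showed the largest rise of the 9 genes at 2 and 4 h. Wild type libraries had 0 to 10 counts of HUG1, or at most 6.60 CPM, and ZCZ01 at 0.5 h had 1.83, 4.65 and 2.89 CPM. At 2 h, wild type was at 3.14, 0 and 5.88 CPM and ZCZ01 at 30.6, 63.2 and 53.2 CPM. At 4 h, wild type was at 1.77, 6.60 and 1.40 CPM and ZCZ01 at 31.5, 28.4 and 24.1 CPM. Every ZCZ01 library at 2 and 4 h lay above all wild type libraries. The log2 fold change was 3.90 (SE 0.55, edgeR adjusted p = 8.6e-05) at 2 h and 3.24 (SE 0.58, adjusted p = 6.0e-04) at 4 h. The wild type library of experiment 2 at 2 h held 0 counts. With 3 counts (2.35 CPM) as an approximate upper limit there, ZCZ01 was about 26.9-fold higher or more in that pair. This leaves out the counting error of the ZCZ01 library. The paired log2 ratios at 2 h were 3.16 in experiment 1 and 3.11 in experiment 3. Leaving out experiments 1, 2 and 3 in turn gave 4.14, 3.22 and 4.64 at 2 h and 2.83, 4.08 and 3.00 at 4 h, all past the threshold.

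DUN1 and DIF1 showed no change that passed. DUN1 was 25.8, 34.4 and 32.9 CPM in wild type and 24.6, 32.7 and 35.1 CPM in ZCZ01 at 2 h, a log2 fold change of -0.01 (SE 0.26, edgeR adjusted p = 0.973). Over all 18 libraries DUN1 had 31 to 63 counts, and 59 nt of its probe overlap POL3 on the opposite strand. DIF1 was 22.0, 19.6 and 21.2 CPM in wild type and 28.4, 29.0 and 26.6 CPM in ZCZ01 at 2 h, so the groups did not overlap, yet the log2 fold change of 0.42 (SE 0.28, adjusted p = 0.256) did not pass. DIF1 had 11 to 52 counts per library.

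CDC21, which makes thymidylate for dTTP, was lower in ZCZ01 at 2 and 4 h, as RNR1 was. Wild type held 59.2, 46.6 and 42.0 CPM at 0.5 h, 38.4, 74.3 and 64.1 CPM at 2 h, and 49.6, 122 and 88.4 CPM at 4 h. ZCZ01 held 37.2, 45.0 and 60.7 CPM at 0.5 h, 19.1, 9.67 and 14.7 CPM at 2 h, and 6.07, 16.9 and 15.9 CPM at 4 h. The strains overlapped at 0.5 h and were apart later. The log2 fold change was -1.95 (SE 0.32, edgeR adjusted p = 3.1e-04) at 2 h and -2.74 (SE 0.32, adjusted p = 1.7e-05) at 4 h, 3.87-fold and 6.69-fold lower. The probe overlaps SGO1 by 69 nt and YOR073W-A by 200 nt on the opposite strand.

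**Figure D4:**
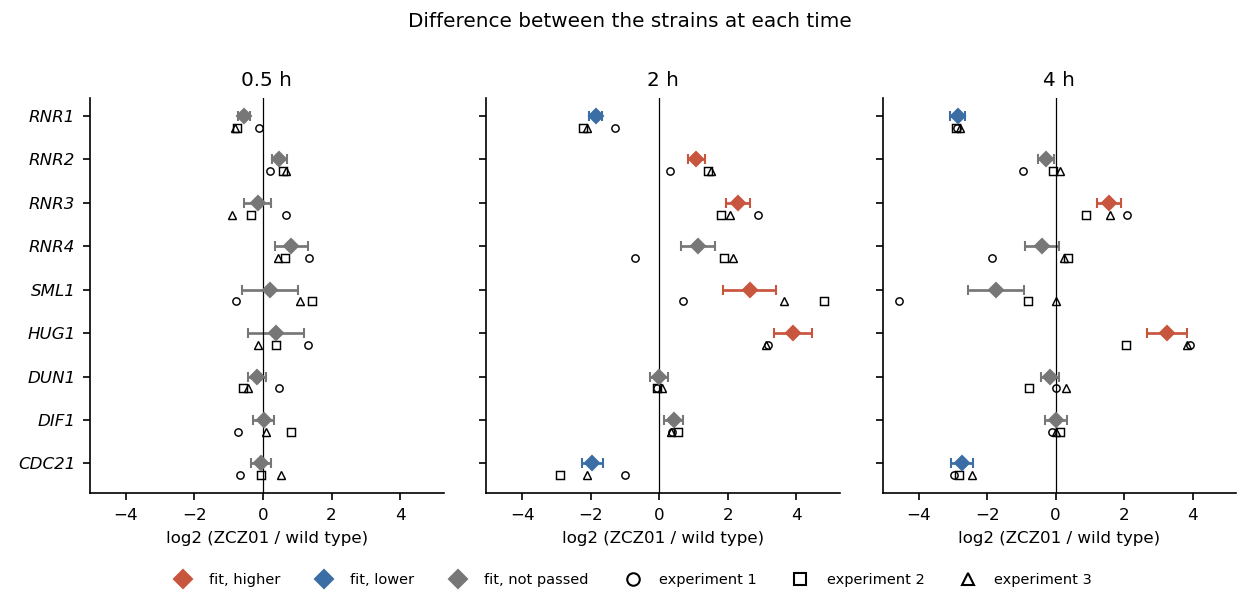
log2 fold change of ZCZ01 against wild type at 0.5, 2 and 4 h for the 9 genes. Diamonds with bars are the edgeR estimate ± SE, coloured where the adjusted p is under 0.05, and open symbols are the paired ratios of the 3 experiments (the pair with 0 wild type counts of HUG1 is left out); RNR4 and SML1 show the widest spread between experiments at 2 and 4 h.

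For 6 of the 18 libraries the titles and the library names give the same time, and these are 1 pair at each time. In them, the log2 ratio of RNR1 was -0.11 at 0.5 h (experiment 1), -2.22 at 2 h (experiment 2) and -2.79 at 4 h (experiment 3). CDC21 gave -0.67, -2.90 and -2.45, and RNR3 gave 0.67, 1.81 and 1.58 in the same pairs. With the times of the titles in all libraries, 0 of the 9 genes passed at any time in edgeR, and at 2 h the log2 fold changes were -1.95 for RNR1, -1.91 for CDC21, 0.84 for RNR3 and 2.92 for HUG1.

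The strain effect itself was then compared between times in the same model. From 0.5 to 2 h it grew by 2.48 on the log2 scale for RNR3 (SE 0.51, edgeR adjusted p = 0.00258) and by 3.52 for HUG1 (SE 1.07, adjusted p = 0.0234). It moved by -1.30 for RNR1 (SE 0.26, adjusted p = 0.00223) and by -1.89 for CDC21 (SE 0.43, adjusted p = 0.00491). These 4 of 9 stood beside 30.6% of all genes, and without experiment 2 or without experiment 3 the count was 1. From 2 to 4 h it moved by -1.01 for RNR1 (SE 0.28, adjusted p = 0.028), -1.37 for RNR2 (SE 0.33, adjusted p = 0.0171) and -4.39 for SML1 (SE 1.12, adjusted p = 0.0206), 3 of 9 against 13.7%. None of these 3 passed without the block, without experiment 2, without experiment 3 or with both summed.

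Within the wild type, 0 of the 9 genes passed in edgeR or DESeq2 between 0.5 and 2 h (0 before adjustment; 20.5% of all genes passed) or between 2 and 4 h (2 in edgeR before adjustment; 10.9%). Within ZCZ01, RNR2, RNR3, SML1 and HUG1 rose and RNR1 and CDC21 fell from 0.5 to 2 h, 6 of 9 against 35.9%. The log2 changes were 3.95 for HUG1 (SE 0.54, edgeR adjusted p = 2.8e-05), 2.09 for RNR3 (SE 0.33, adjusted p = 1.1e-04) and 2.26 for SML1 (SE 0.69, adjusted p = 0.0165). RNR2 changed by 0.66 (SE 0.24, adjusted p = 0.0419), RNR1 by -1.76 (SE 0.33, adjusted p = 6.0e-04) and CDC21 by -1.65 (SE 0.36, adjusted p = 0.0018). Without the block, or without experiment 3, 3 of the 9 passed. From 2 to 4 h in ZCZ01, SML1 fell (-2.78, SE 0.71, adjusted p = 0.0291), 1 of 9 against 6.1%, and this call was lost without the block, without experiment 2, without experiment 3 and with both summed.

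Genes around the 9 were followed as lists, whose counts are read beside all genes tested, of which 19.1% were higher and 23.2% lower at 2 h and 19.9% higher and 21.4% lower at 4 h. Of 16 other genes bound by MBF, 15 fell in ZCZ01 at 2 h and 12 did at 4 h, with 0 higher, and the median log2 fold change was -1.16 and -0.90, where the median of all genes was -0.05 and 0.00. Without experiments 2 and 3 in turn, or with both summed, 11 to 13 were lower at 2 h and 6 to 8 at 4 h. CLB6, an S phase cyclin gene, fell by 3.38 (SE 0.54) at 2 h, and POL1, the catalytic subunit of DNA polymerase alpha, fell by 2.15 (SE 0.22). CDC45, a replication factor, was at -1.71 at 2 h and -1.17 at 4 h (-1.06 and not passed without experiment 2), and TOS4 at -1.45 and -2.43. Of 9 damage-induced genes, 6 rose at 2 h and 5 at 4 h with 0 lower, with medians of 0.97 and 0.62, where 19.1% and 19.9% of all genes rose. RAD16 and RAD2, both of nucleotide excision repair, rose by 1.60 and 1.15 at 2 h and 1.44 and 1.28 at 4 h. RAD54 (-0.06), DIN7 (-0.16) and PLM2 (0.58) did not pass at 2 h. At 4 h RAD54 rose by 0.62, while DIN7 (-0.175) and PLM2 (-0.58) again did not pass. PHR1, the photolyase, rose by 1.42 at 2 h (SE 0.49) and was at 0.12 at 4 h, and its call was lost without the block, in DESeq2 and without each experiment in turn (1.22 to 1.62). DDI1, a shuttle protein of the proteasome, rose by 1.00 at 2 h and 0.63 at 4 h, and the call at 4 h was lost without experiment 2 (0.51) or 3 (0.68). With experiments 2 and 3 summed, 5 passed upwards at 2 h and 3 at 4 h, and without experiment 2 or 3 the count at 4 h was 3 or 2.

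Of 10 other enzymes of dNTP and thymidylate metabolism, 1 was higher and 4 lower at 2 h, and 5 were lower at 4 h. These 5 of 10 at each time stood beside 42.3% and 41.3% of all genes called in either direction, so the share was near the background. DUT1 (dUTPase) was at -1.28 at 2 h and -0.79 at 4 h, ADK1 (adenylate kinase) at -0.95 and -1.29, and GUK1 (guanylate kinase) at -0.92 and -0.56. URA7 (CTP synthase) was higher at 0.5 h (1.70, SE 0.22, edgeR adjusted p = 9.2e-04) and lower at 2 h (-0.76) and 4 h (-0.55). At 4 h the list had 1 lower gene without experiment 2 and 2 without experiment 3, and the calls of URA7 (-0.71), DUT1 (-0.57) and GUK1 (-0.47) were among those lost without experiment 2. Of 6 electron donors, the thioredoxins, glutaredoxins and their reductases that reduce the enzyme, 4 were higher and 1 lower at 2 h, 5 of 6 against 42.3%. GRX2 was at 1.08, GRX1 at 0.98 and TRR1 at 0.76 at 2 h. The call of TRR1 at 2 h was lost without the block (0.83, edgeR adjusted p = 0.0595). The thioredoxin genes went opposite ways, with TRX1 at -1.54 at 2 h and -1.22 at 4 h. TRX2 was at 0.695 and 0.702 and passed at both times. At 4 h, 3 of the 6 electron donors were higher and 2 lower, and with experiments 2 and 3 summed 1 and 1.

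Upstream of DUN1, 14 checkpoint kinases and adaptors showed 2 higher and 3 lower at 2 h and 3 higher and 2 lower at 4 h. These 5 of 14 at each time were below the 42.3% and 41.3% of all genes called. MEC1, the ATR kinase, was higher at 2 h (1.09, SE 0.26), a call lost without experiment 2 (0.84, edgeR adjusted p = 0.086), when 0 of the 14 were higher. CSM3, MRC1 and TOF1, which travel with the replication fork, were lower (-1.67, -1.49 and -1.08). Without experiment 3, 0 of the 14 passed at 4 h, and with experiments 2 and 3 summed 1 did. Of 12 regulators of RNR transcription and localization, 2 were higher and 3 lower at 2 h, 5 of 12 against 42.3% of all genes, and 7 were lower at 4 h against 21.4%. The 3 lower at 2 h became 1 without experiment 1, without experiment 3 and with experiments 2 and 3 summed. ROX1, a repressor of RNR genes, was higher at 2 h (1.86, SE 0.31) and KAP122, an importin of the small subunit, was lower (-1.77, SE 0.24). NRM1, a co-repressor of MBF targets, fell by 3.08 at 4 h (SE 0.33), and TUP1, the co-repressor recruited by Crt1, fell by 1.28. Without experiment 2 or 3 the count at 4 h was 3.

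Markers of cell cycle phase also differed at 2 and 4 h. At 0.5 h, 1 of 6 late M and early G1 genes was lower (CTS1 -0.68, SE 0.13), where 6.86% of all genes passed. Their summed level was then 1617 to 1783 CPM in wild type and 1120 to 1232 CPM in ZCZ01. Without the block, without experiment 2 or without experiment 3, 0 of the 6 passed at 0.5 h. All 8 S phase histone genes were lower in ZCZ01 at 4 h (21.4% of all genes) and 6 at 2 h (23.2%), with HTA2 at -3.54 and -3.84, HTB2 at -3.26 and -3.54 and HHF2 at -2.57 and -2.92 at 2 and 4 h. HTB1 was at 0.06 at 2 h and -2.02 at 4 h. The summed histone level was 9499 to 16956 CPM in wild type and 2965 to 5396 CPM in ZCZ01 at 2 h, and 8119 to 19536 against 2422 to 5190 CPM at 4 h. Of 6 late M and early G1 genes, 4 were higher at 2 h (CTS1 1.24, DSE2 1.23, SCW11 1.20, EGT2 0.86), beside 19.1% of all genes. The other gene that passed, SIC1, was lower (-0.56), beside 23.2% of all genes, and 0 were lower without experiment 2 or without experiment 3. The summed level of the 6 at 2 h was 890 to 1501 CPM in wild type and 1724 to 2907 CPM in ZCZ01. Without the block 2 were higher at 2 h. At 4 h, 2 were higher (CTS1 0.60, EGT2 0.51), beside 19.9% of all genes, and DSE2 was lower (-0.86), beside 21.4%. SCW11 was at 0.43 and did not pass. The summed levels overlapped at 4 h, at 854 to 1826 CPM in wild type and 1126 to 2387 CPM in ZCZ01. Without experiment 2, or without the block, 0 of the 6 passed at 4 h. Of 6 G2 and M genes, 2 were lower at 2 h, beside 23.2% of all genes, and this became 0 without experiment 2 and 1 without experiment 1 or 3. At 4 h, 3 fell (CLB1 -2.75, CDC5 -2.00 and SWI5 -1.83), beside 21.4% of all genes, with sums of 255 to 289 CPM in wild type and 124 to 137 CPM in ZCZ01 at 4 h. The part of these differences in phase in the levels of RNR1 and CDC21 was not tested.

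**Figure D5:**
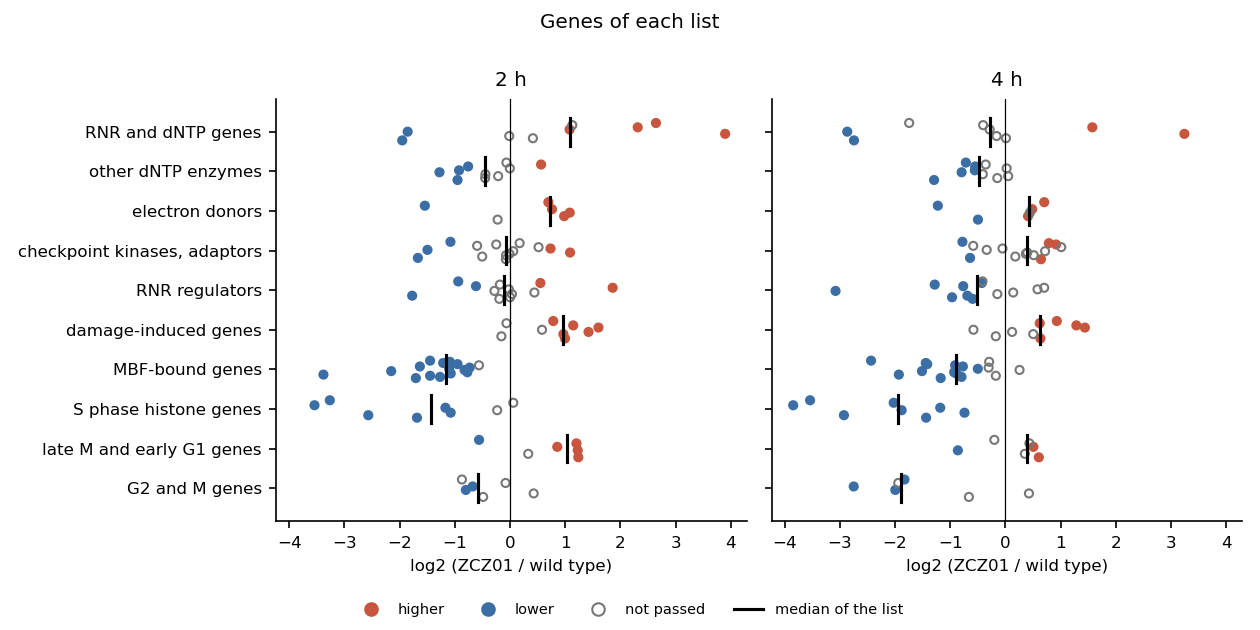
log2 fold change of ZCZ01 against wild type at 2 and 4 h for the genes of each list. Each point is a gene, filled where the adjusted p is under 0.05 (red higher, blue lower), and vertical bars are list medians. The MBF-bound and histone genes lie on the lower side apart from HTB1 at 2 h (0.06) and POL12 at 4 h (0.25). Of 9 damage-induced genes, 6 passed as higher at 2 h.

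The genes whose log2 levels ran most like those of a member were sought among 5029 genes over the 18 libraries, which share strain, time and experiment. RNR1 ran closest with HHF2 (Pearson coefficient 0.974), ADH6 (0.971), RSM10 (0.970), SKI8 (0.970) and GAS1 (0.968). For RNR3 these were MOH1 (0.915), FMP46 (0.886), YLR257W (0.886), ARG7 (0.879) and BIO4 (0.877), and for CDC21 they were YFH1 (0.961), AIM45 (0.937), PHS1 (0.935), PMT2 (0.932) and YGL041W-A (0.931). Among the 9 genes, RNR2 followed SML1 (0.925) and RNR4 (0.903), and HUG1 followed RNR3 (0.794). CDC21 ran against RNR3 (-0.825) and HUG1 (-0.798).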

How the data were processed

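The deposited files hold uncorrected read counts per gene probe, which the authors made from QuantSeq 3′ libraries aligned with Bowtie2 (version not given in the sources used here), with 1 table per experiment. Of 6692 probes, 5999 were matched to R64, and 5985 of these are a gene with 100 nt downstream. Groups and times follow the strain and library name. Genes were filtered by filterByExpr, scaled by TMM and tested in edgeR 4.0.16 under R 4.3.3, with a block for each of 9 library pairs for strain comparisons, and for each experiment for time comparisons. A gene passed at a Benjamini-Hochberg adjusted p under 0.05 with no fold minimum. Same-pair libraries deviated together (correlation 0.541 to 0.827 over genes), and the pairs come from the library names. Because experiment 1 stood apart from the others in both strains, this correlation cannot show whether the pairs of the other experiments are right. DESeq2 1.42.0, other scalings, blocks and filters, each experiment left out, summed experiments and the titles' times were tried. Changes to list counts under these settings were added after the data were seen. Nothing in the sources says that the experiments are separate cultures, so p values may measure technical spread. On simulated data at 2 h (5658 genes), 67.5% of genes raised 2-fold and 95% of those raised 4-fold were called, and 0.27% of unchanged genes. The simulation had no differences between experiments or pairs and changed few genes, so these shares may not hold for the real libraries.

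The 9 genes and all lists were chosen with earlier results of these data known, and 1 item of a list is not reported here. Named were the 9 genes, PPZ1, up to 4 genes per list passing at 2 or 4 h with the largest change, and the 5 genes most like RNR1, RNR3 and CDC21 (mean of at least 20 counts). SIC1, POL12, RAD54, DIN7 and PLM2 were named as well, because at 2 or 4 h they did not follow most of their list. TRX2 was named as the other thioredoxin gene of the list that holds TRX1. Not every gene that left its list was named above. CDC20 of the G2 and M genes was at 0.429 at 2 h and 0.425 at 4 h and did not pass. URA8 of the dNTP and thymidylate enzymes passed as higher at 2 h (0.563). Identity between coding sequences (Biopython 1.88) took the place of protein identity. All motif stretches end before the 100 nt next to the start codon. The figures were drawn with matplotlib 3.10.9.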

Additional observations from a re-analysis of the deposited data

Results flagged for a closer look

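Strain effects of 6 genes differed between times by the contrast of the edgeR model, as given above with their adjusted p values. Between 0.5 and 2 h the difference was -1.30 for RNR1, 2.48 for RNR3, 3.52 for HUG1 and -1.89 for CDC21. Between 2 and 4 h it was -1.01 for RNR1, -1.37 for RNR2 and -4.39 for SML1. Experiment 1 of SML1 at 4 h, at 178 CPM in wild type and 7.18 CPM in ZCZ01, lies far from experiments 2 and 3 in both strains.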

How the results depend on the processing

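Of the member counts under the alternatives, 74 stayed within 1.5 times the reported count and 24 did not. With the times of the sample titles, 0 members passed in each of the comparisons of the strains at 2 and 4 h, of the strain effect between times and of ZCZ01 between times. Without the replicate block, 0 passed in the strain effect from 2 to 4 h and in ZCZ01 from 2 to 4 h, and 3 in ZCZ01 from 0.5 to 2 h. With experiments 2 and 3 summed, 0 passed in the strain effect from 2 to 4 h and in ZCZ01 from 2 to 4 h, and DESeq2 called 3 in the latter. Leaving out each experiment in turn gave 0 to 4 members at 0.5 h, 4 to 7 at 2 h and 4 to 5 at 4 h. For the strain effect it gave 1 to 7 from 0.5 to 2 h and 0 to 4 from 2 to 4 h. Within wild type it gave 0 to 2 and 0 to 5, and within ZCZ01 3 to 8 and 0 to 5. The highest of these counts came without experiment 1, which leaves the 2 closely alike experiments.

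Directions turned for 47 values, most of them in comparisons that had not passed. With the titles' times these were, at 0.5 h, RNR2 -0.13, RNR3 1.94, RNR4 -0.44, SML1 -1.29, DUN1 0.14 and DIF1 -0.14, at 2 h URA7 0.25, and at 4 h RNR2 0.77, RNR4 0.93, SML1 1.59, URA7 0.15, HTB1 0.19 and DSE2 0.51. The same held for the strain effect from 2 to 4 h of RNR1 (0.06) and RNR2 (0.14), that from 0.5 to 2 h of RNR3 (-1.10) and HUG1 (-0.46), and the change within ZCZ01 from 0.5 to 2 h of RNR3 (-0.87) and CDC21 (0.15). Leaving out each experiment in turn gave, at 0.5 h, RNR3 -0.66 to 0.18, SML1 -0.17 to 1.27, DUN1 -0.50 to 0.00, DIF1 -0.36 to 0.44 and CDC21 -0.39 to 0.28. At 2 h it gave DUN1 -0.03 to 0.05, NRM1 -0.43 to 0.02, TUP1 -0.38 to 0.08 and HTB1 -0.26 to 0.73, and at 4 h RNR2 -0.49 to 0.07, RNR4 -0.80 to 0.31, DUN1 -0.38 to 0.18, DIF1 -0.03 to 0.08 and PHR1 -0.01 to 0.26. The value of 0.31 for RNR4, without experiment 1, passed as higher. DUN1 at 2 h also turned with each time alone, DESeq2 and RLE (0.03 in each), total counts (0.13) and summed experiments (0.01). DIF1 turned at 0.5 h with total counts (-0.05) and summed experiments (-0.12) and at 4 h with no filter (-0.00), HTB1 at 2 h with summed experiments (-0.23), and SML1 at 0.5 h without the replicate block (-0.25). The cause was not tested. The calls of RNR1 at 4 h and of CDC21, RNR3 and HUG1 at 2 and 4 h were kept under each alternative that keeps the times of the library names. Counts were lowest on average for HUG1, DIF1, RNR3 and DUN1 (mean of 24.0 to 44.7 per library), which limits the precision of their values.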
